A study of Homo sapiens with 6 samples.

Results

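Nonsense-mediated decay factors were examined in NCI-H660 cells treated with pyrvinium pamoate (PP), an anthelmintic drug, or with PBS. The factors are the 9 genes *UPF1*, *UPF2*, *UPF3A*, *UPF3B*, *SMG1*, *SMG5*, *SMG6*, *SMG8* and *SMG9*, found by symbol among the 17177 genes of the deposited table, and all 9 were listed. NCI-H660 is an established cell line of human neuroendocrine prostate cancer, labelled wild type in every sample. Poly(A) RNA from cells at day 3 was sequenced in 3 libraries per treatment, and the PP concentration used for them is not given in the sources used here. The labels do not say that the 3 libraries of a treatment came from separate cultures. The study's text calls the samples independent in a legend but speaks of duplicates in its methods. P values therefore set a difference against the spread between these libraries, which may be technical.

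Nonsense-mediated decay removes mRNAs on which translation stops too early. The helicase UPF1 is recruited to the terminating ribosome and is joined by UPF2 and UPF3, which connect it to the exon junction complex left behind by splicing. The kinase SMG1, held in check by SMG8 and SMG9, phosphorylates UPF1, and phosphorylated UPF1 attracts SMG6, an endonuclease, and SMG5, an adaptor for deadenylation and decapping. The pathway also lowers normal transcripts of stress genes, and the mRNAs of several of its own factors are substrates. UPF3A and UPF3B are paralogs, and UPF3B is encoded on the X chromosome.

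The values are FPKM, fragments scaled by gene length and by library size, so each is a share of its library, and fewer transcripts per cell cannot be told apart from more RNA of other genes. The counts behind the values, recovered from their steps, came to 29064253 to 32481171 per library, and every decay factor had between 875 and 13950 counts in each library. Of 9 neuroendocrine markers 7 reached a mean of 1 FPKM, among them *CHGA* and *SYP* but not *ELAVL3*, the RNA-binding protein against which the study used PP. The summed FPKM of the 9 markers was 786 to 794 with PBS and 385 to 404 with PP. Summed markers of other cells were low. They came to 3.36 to 3.57 with PBS and 4.23 to 4.43 with PP for 4 genes of fibroblasts, 1.30 to 1.58 and 0.851 to 1.25 for 3 of leukocytes, and 4.25 to 4.69 and 2.96 to 3.38 for 3 of endothelium. *PTPRC*, which defines leukocytes, was at 0 in 3 libraries. Whether these marker levels had a part in the results was not tested. The activity of the decay pathway was not measured, only the levels of transcripts.

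With PP, the transcript of *UPF3B* rose 1.87-fold, those of *UPF2*, *SMG1* and *SMG8* rose by smaller amounts, and that of *UPF1* fell slightly. The other 4 factors, *UPF3A*, *SMG5*, *SMG6* and *SMG9*, were not past the threshold. Differences were taken as PP minus PBS in log2(FPKM + 1) by the linear model of limma. The added 1 makes the log2 fold change of a gene at a low FPKM smaller in size. The model covered 11726 genes, those whose mean reached 1 FPKM and all 9 factors among them, with Benjamini-Hochberg adjustment over all of them. At an adjusted p under 0.05, 4 of the 9 factors were higher, beside 38.1% of all genes tested, and 1 was lower, beside 34.4%. The number higher was near the share over all genes, and with 9 genes neither count is read as a result about the pathway. The PP and PBS libraries did not overlap in 5 of the 9 factors, beside 75.0% of all genes. No factor passed the cutoff of the study's methods (limma P under 0.001, read as unadjusted, and an absolute log2 fold change over 1), which 5.18% of all genes passed. The median log2 fold change was -0.042 over the 9 factors and 0.022 over all genes, and the median absolute value was 0.18 and 0.27.

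**Figure D1:**
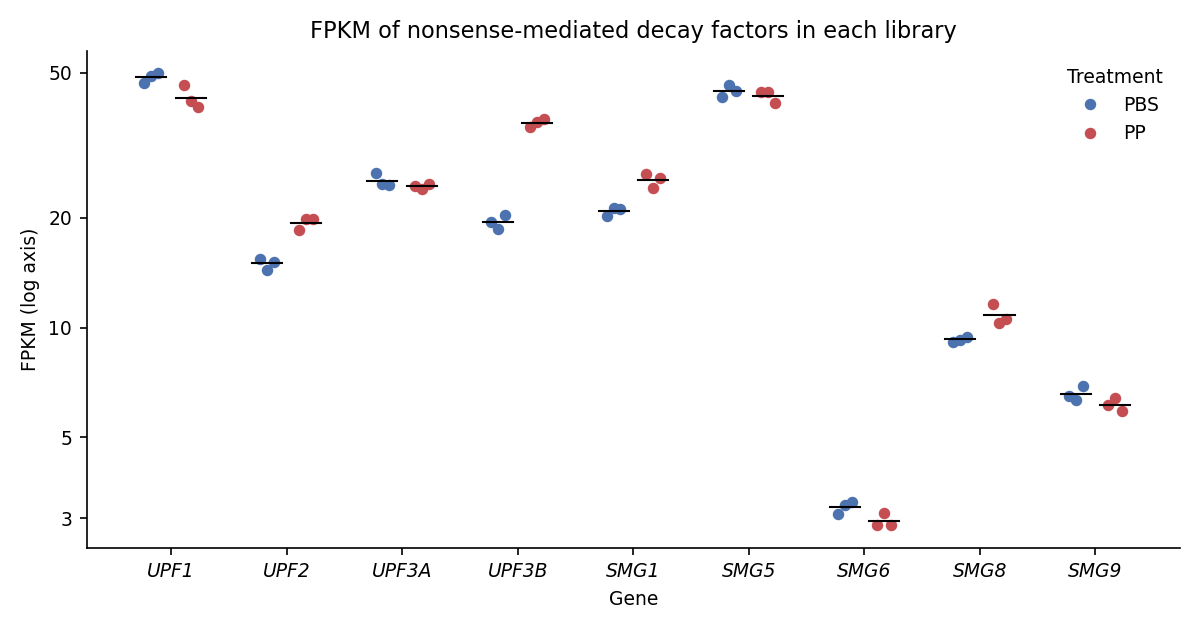
FPKM of each decay factor (log axis) in the 3 PBS and 3 PP libraries, 1 point per library, with a line at the mean of each group. The 3 PP libraries of UPF3B lie at 35.5 to 37.3 and its PBS libraries at 18.6 to 20.4, while the points of UPF3A, SMG5, SMG6 and SMG9 overlap between treatments.

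*UPF3B* (chromosome X), the paralog best known as the bridge to the exon junction complex, had an FPKM of 19.5, 18.6 and 20.4 in PBS replicates 1, 2 and 3 and of 35.5, 36.7 and 37.3 in PP replicates 1, 2 and 3. The groups did not overlap, and the gap between the groups was wider than the spread within either. The means were 19.5 ± 0.891 and 36.5 ± 0.910 (SD, n = 3), a ratio of 1.87. The log2 fold change of 0.87 had a standard error of 0.04 (limma, adjusted p = 5.29e-08), from 1694 to 1978 counts per PBS library and 3383 to 3793 per PP library. Of the other genes tested, 374 had a higher log2 fold change, and 7.4% of all genes had a larger one in either direction.

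*UPF3A* (chromosome 13), which binds the same partners and has been described both as a weaker substitute for UPF3B and as an inhibitor of decay, gave 26.6, 24.8 and 24.6 FPKM with PBS. With PP it gave 24.5, 24.0 and 24.8. The groups overlapped, since PP replicate 3 lay above 2 PBS libraries. The log2 fold change was -0.05 (95% interval -0.14 to 0.05, adjusted p = 0.324 from limma).

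The promoters of the pair are shown because *UPF3B* passed the test and its paralog did not. Each run is the RefSeq sequence (build GRCh38.p14) from 250 bases before to 50 bases after the annotated start, on the strand of the gene, and capitals mark the letters matched by a motif search. *UPF3B* lies on the minus strand (chrX:119852914-119853213) and *UPF3A* on the plus strand (chr13:114281351-114281650).
UPF3B: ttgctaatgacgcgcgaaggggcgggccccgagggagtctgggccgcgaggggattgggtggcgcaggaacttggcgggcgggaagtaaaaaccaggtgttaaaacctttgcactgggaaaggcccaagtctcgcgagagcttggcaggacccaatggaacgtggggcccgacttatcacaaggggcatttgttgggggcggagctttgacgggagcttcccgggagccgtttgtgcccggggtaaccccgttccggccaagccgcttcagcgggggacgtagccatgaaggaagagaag
UPF3A: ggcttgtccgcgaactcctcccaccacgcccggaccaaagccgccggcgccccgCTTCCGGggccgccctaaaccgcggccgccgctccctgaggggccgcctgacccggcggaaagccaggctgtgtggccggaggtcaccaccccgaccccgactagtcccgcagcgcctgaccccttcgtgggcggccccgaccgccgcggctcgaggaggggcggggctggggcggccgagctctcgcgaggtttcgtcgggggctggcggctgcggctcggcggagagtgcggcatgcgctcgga

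Where RefSeq lists several starts for a gene, the window farthest 5' was taken. The search covered 4 motifs on both strands, none overlapping another in these windows. They were the C/EBP-ATF response element (TGATGNAA), the E-box (CACGTG), the cAMP response element (TGACGTCA) and an ETS site (CCGGAAG). The *UPF3B* window held none of these letters. That of *UPF3A* held the ETS letters in reverse, starting at -196 from the start site, and 20.1% of the 9557 promoters searched, those of tested genes, held them on either strand. Among the 8 factors with a promoter in the RefSeq table (*SMG8* was without one), the E-box was found in that of *UPF2* at -237, as in 10.3% of all promoters. The C/EBP-ATF element was in none of the 8 and in 1.52% of all, and the cAMP response element in none and in 3.38%. GC content was 62.7% in the window of *UPF3B* and 77.0% in that of *UPF3A*.

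Because the paralogs share partners, their ratio was taken within each library, where it does not depend on scaling. The log2 ratio of *UPF3B* to *UPF3A* was -0.45, -0.41 and -0.27 in PBS replicates 1, 2 and 3 and 0.54, 0.61 and 0.59 in PP replicates 1, 2 and 3. On the FPKM scale *UPF3B* was at 0.733 to 0.830 of *UPF3A* with PBS and at 1.45 to 1.53 times it with PP. The ratio thus differed by 0.96 on the log2 scale, or 1.94-fold, and the groups did not overlap (exact permutation test, two-sided, p = 0.1, the smallest that 3 libraries against 3 allow). The order of the pair by level rests on gene length. The FPKM imply a length of 3.13 kb for *UPF3B* and 5.11 kb for *UPF3A*, and in counts *UPF3A* had more with PBS (3677 to 4167) and also with PP (3678 to 4112), where *UPF3B* reached 3793.

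**Figure D2:**
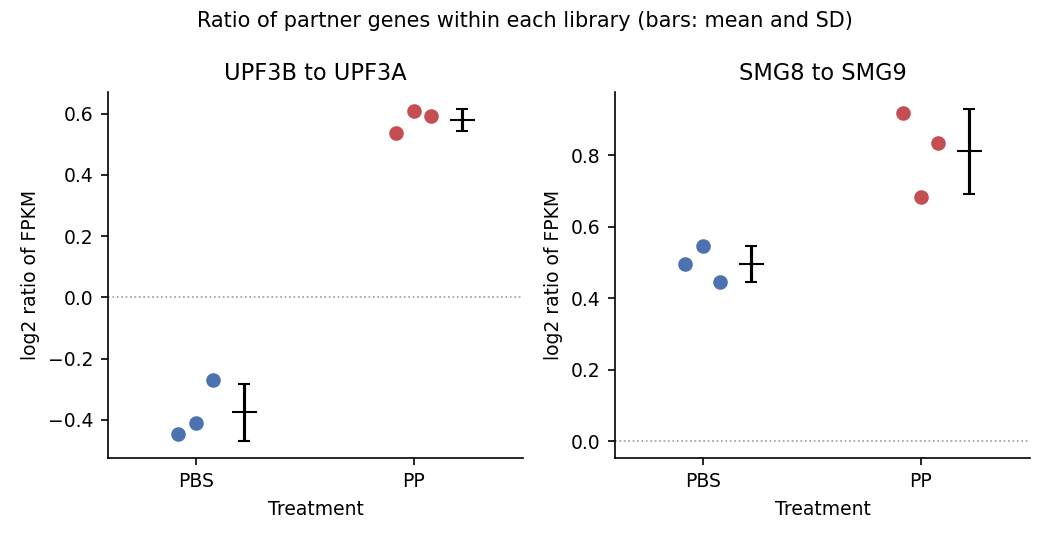
Log2 ratio of FPKM within each library for UPF3B to UPF3A (left) and SMG8 to SMG9 (right), 1 point per library, with the mean and SD of each treatment beside the points. Both ratios are higher in all 3 PP libraries, by 0.96 and 0.32 on the log2 scale, and that of UPF3B to UPF3A moves from below 0 to above 0.

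*UPF1* (chromosome 19), the ATP-dependent RNA helicase at the centre of the pathway, had an FPKM of 46.8, 49.1 and 49.8 in the PBS libraries. In the PP libraries it was 46.2, 41.8 and 40.3. All PP libraries lay below all PBS libraries, but PP replicate 1 came close to PBS replicate 1. The means were 48.6 ± 1.61 and 42.8 ± 3.08 (SD, n = 3), and the log2 fold change of -0.18 had a standard error of 0.05 (limma, adjusted p = 0.00927). A larger absolute change was seen in 65.2% of all genes.

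*UPF2* (chromosome 10), the scaffold that joins UPF1 to UPF3, stood at 15.4, 14.4 and 15.2 FPKM with PBS and at 18.5, 19.9 and 19.8 with PP. Each PP library was higher than each PBS library. The ratio of the means was 1.29, and the log2 fold change of 0.35 had a standard error of 0.05 (limma, adjusted p = 6.79e-05). After *UPF3B* it had the second highest change of the 9 factors, and 2298 genes had a higher one.

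The kinase and its partners came next. *SMG1* (chromosome 16), a kinase of the PIKK family that phosphorylates UPF1, had an FPKM of 20.2, 21.3 and 21.1 with PBS and of 26.3, 24.2 and 25.7 with PP, without overlap. The ratio of the means was 1.22 and the log2 fold change 0.27 with a standard error of 0.04 (limma, adjusted p = 0.000302). The value of *SMG1* is uncertain to the extent that its reads were divided with 7 pseudogenes on the same chromosome, none of which is listed in the table.

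*SMG8* (chromosome 17), which restrains the kinase, was at 9.15, 9.27 and 9.43 with PBS and at 11.6, 10.3 and 10.5 with PP. The highest PBS library lay below the lowest PP library, and PP replicate 1 stood above the other PP libraries. Its log2 fold change of 0.20 had a standard error of 0.05 (limma, adjusted p = 0.00657), the ratio of the means being 1.16. Its counts, 875 to 949 with PBS and 1002 to 1145 with PP, were the lowest of the 9 factors in the PBS libraries.

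*SMG9* (chromosome 19), which forms a pair with SMG8 on the kinase, was at 6.49, 6.34 and 6.92 with PBS and at 6.13, 6.42 and 5.91 with PP. The groups overlapped, and the log2 fold change of -0.08 (95% interval -0.21 to 0.04, adjusted p = 0.189 from limma) was not past the threshold. The log2 ratio of *SMG8* to *SMG9* was 0.50, 0.55 and 0.45 with PBS and 0.92, 0.68 and 0.84 with PP. It was higher in all 3 PP libraries, by 0.32 (exact permutation test, two-sided, p = 0.1, again the smallest possible).

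Of the factors that act on phosphorylated UPF1, neither of the 2 among the 9 passed the threshold. *SMG5* (chromosome 1) had an FPKM of 42.9, 46.3 and 44.7 with PBS and of 44.3, 44.4 and 41.2 with PP, and the groups overlapped. The log2 fold change was -0.04 (95% interval -0.14 to 0.06, adjusted p = 0.41 from limma). *SMG6* (chromosome 17) had the lowest level, at 3.08, 3.25 and 3.32 with PBS and 2.88, 3.10 and 2.87 with PP. Here 2 PP libraries lay below every PBS library and PP replicate 2 lay above PBS replicate 1. Its log2 fold change was -0.09 (95% interval -0.23 to 0.04, adjusted p = 0.182 from limma).

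**Figure D3:**
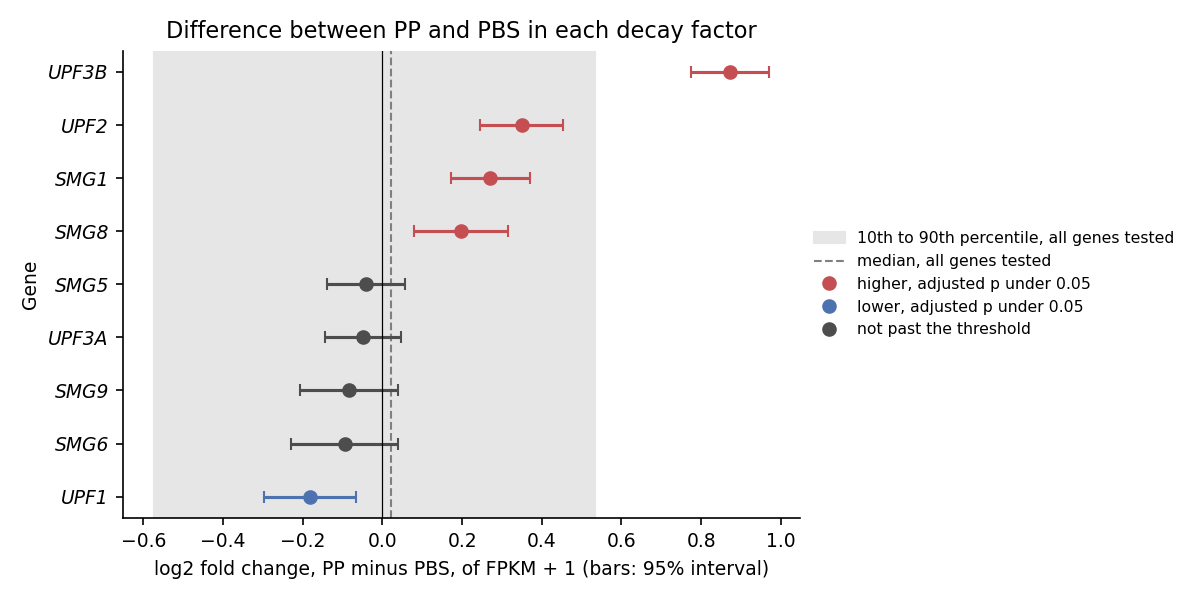
Log2 fold change of FPKM + 1, PP minus PBS, of each decay factor with its 95% interval from limma. The grey band spans the 10th to the 90th percentile of all genes tested (-0.57 to 0.53) and the dashed line is their median. UPF3B at 0.87 lies above the band and the other 8 factors lie within it.

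Ordered by FPKM, *UPF1* led with PBS at a mean of 48.6, followed by *SMG5* at 44.6, *UPF3A* at 25.3, *SMG1* at 20.9, *UPF3B* at 19.5, *UPF2* at 15.0, *SMG8* at 9.28, *SMG9* at 6.59 and *SMG6* at 3.22. Neighbours in this order did not overlap in range except *SMG1* and *UPF3B*. With PP, *UPF3B* at 36.5 stood in the third place behind *SMG5* at 43.3 and *UPF1* at 42.8, whose ranges overlapped, as did those of *SMG1* and *UPF3A* behind it. The last 4 places were held by *UPF2*, *SMG8*, *SMG9* and *SMG6* in both treatments. The lengths implied by the FPKM ran from 3.13 to 16.7 kb, and the order rests on them.

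The genes whose log2(FPKM + 1) followed *UPF1* most closely over the 6 libraries were *SRSF9* (Pearson r = 0.998), *SIVA1* (r = 0.996) and *ABHD8* (r = 0.996). With 2 treatments this likeness takes in the difference between them. It also takes in variation within a treatment, as *UPF1* ranged from 40.3 to 46.2 FPKM over the PP libraries. These parts were not separated, and 678 of the 11725 other genes had an r above 0.9.

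The surrounding machinery was described with 12 further lists, of which 11 had members in the test. Of their 100 genes tested, 52 were higher and 22 were lower with PP at an adjusted p under 0.05, with a median log2 fold change of 0.16. Over all genes 38.1% were higher and 34.4% were lower, and the counts of the lists are to be read beside these shares. Among 8 other genes tied to nonsense-mediated decay, 7 were higher and 1 was lower, with a median of 0.30. *GNL2*, a nucleolar GTPase, had an FPKM of 35.4, 34.1 and 35.0 with PBS and 56.1, 54.3 and 55.3 with PP (log2 fold change 0.65, standard error 0.04, adjusted p = 8.95e-08). *NBAS* and the helicase *DHX34* were higher by 0.46 and 0.40 on the log2 scale. The gene that was lower was *PNRC2*, a decapping cofactor named after its value was seen.

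At the start of the pathway, all 4 tested genes of translation termination were higher, with a median of 0.30. They were *ETF1*, which reads the stop codon (0.26), *GSPT1*, its GTPase partner (0.34), and the poly(A) binding proteins *PABPC1* (0.37) and *PABPC4* (0.17, named after its value was seen). *GSPT2* was below the filter. *PABPC1* had an FPKM of 643, 579 and 565 with PBS and of 713, 802 and 793 with PP. In the exon junction complex, to which UPF3B binds, 4 of 10 genes were higher and 3 were lower, with a median of 0.08. *CASC3* was higher by 0.49 and *ACIN1* lower at -0.21, and *MAGOHB*, at 0.38, encodes nearly the same protein as *MAGOH*, so reads may be divided between them.

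Downstream, the enzymes that degrade the RNA did not move one way. For decapping and decay from the 5' end, 5 of 15 genes were higher and 5 were lower, with a median of 0.08. The higher genes were *PATL1* (0.56), *DCP1B* (0.48), *DCP1A* (0.41), *XRN1* (0.25) and *EDC3* (0.24). *DDX6* was among the lower ones (-0.13, adjusted p = 0.026 from limma). It and the higher genes were named after their values were seen. The lowest values were those of *LSM3* (-0.70), *LSM4* (-0.62) and *LSM7* (-0.61), subunits of the ring that binds the RNA tail. The ring's other listed subunits, named after their values were seen, did not all move with them. *LSM2* was lower too (-0.49), but *LSM1* (0.15), *LSM5* (-0.11) and *LSM6* (0.08) were not past the threshold. The FPKM of *LSM3* was 21.1, 21.9 and 19.1 with PBS and 11.9, 11.4 and 13.7 with PP. For deadenylation 5 of 13 were higher and 2 were lower (median 0.04), with *CNOT10* at 0.62 and *PAN2* at 0.48 but the nuclease *CNOT6* at -0.55. In the RNA exosome and SKI complex 9 of 15 were higher and 1 was lower (median 0.19). The highest log2 fold changes were those of *EXOSC9* (0.47), *DIS3* (0.45) and *EXOSC5* (0.40). By the ratio of mean FPKM, *DIS3* at 1.45 stood above *EXOSC9* at 1.41. The gene that was lower was *SKIV2L*, at -0.18 (adjusted p = 0.0307) and named after its value was seen. It lost its call in 6 of the 14 alternative fits, among them those without PBS replicate 2 or 3 and without PP replicate 2 or 3, which leave 0 of 15 lower.

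In the machinery that assembles PIKK kinases such as SMG1, 2 of 7 genes were higher and 2 were lower (median -0.035), with *TTI2* at 0.41, *RPAP3* at 0.31 and *TTI1* at -0.28. Of the 5 other PIKK family members, *ATM* was higher (0.24) and *PRKDC* (-0.21) and *TRRAP* (-0.23) were lower, and *SMG1*, at 0.27, was the member with the highest value. Among 4 genes of other UPF1-dependent decay, *ZC3H12A*, an endonuclease of immune mRNAs, was lower (-0.69, with a ratio of mean FPKM of 0.51). It had 265 to 310 counts per PBS library and 142 to 168 per PP library. *STAU2* was lower as well (-0.39). *SLBP*, which binds histone mRNAs, was higher by 0.11, and that call was lost in 2 of the 14 alternative fits, without PBS replicate 3 and without the trend (0 of 4 higher in each).

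Known substrates of the pathway were listed as well. Of 10 stress genes whose mRNAs are substrates, 9 were higher and 1 was lower with PP, with a median of 1.85. *TRIB3* (3.09), *ATF3* (2.73) and *UPP1* (2.31) led, and *UPP1* had an FPKM of 6.33, 5.86 and 5.26 with PBS and of 34.3, 32.3 and 31.6 with PP. Several of these genes are also known as targets of stress-induced transcription, and synthesis and decay cannot be told apart from these levels. Of 9 genes of the SR family whose poison exons lead to decay, 5 were higher and 3 were lower (median 0.16), with *SRSF2* at -0.52, *TRA2A* at 0.38 and *TRA2B* at 0.24. Values per gene do not separate transcripts with a premature stop codon from the others. None of the 7 snoRNA host transcripts listed as substrates has a row under its symbol in the table, and they were not analysed here.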

How the data were processed

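RNA-seq of NCI-H660 cells at day 3 was analysed, 3 libraries with PBS and 3 with PP. The authors deposited FPKM by gene symbol. The submitters' processing notes name fastp, HISAT2, HTSeq and GRCh38, whereas the paper's methods name Bowtie, hg19, RSEM, Cufflinks and HTSeq. Which of them gave these values is not stated. No coordinate was taken from the table, and gene positions are those of RefSeq (GRCh38.p14).

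Genes whose mean reached 1 FPKM were tested on log2(FPKM + 1) with limma 3.58.1 in R 4.3.3 (eBayes with an intensity trend). Whole counts were recovered from the FPKM steps of all 17177 genes, with a tolerance of 0.01 of a count. On simulated data this gave the exact counts of 98.2% of the 14031 genes averaging 10 counts or more. In a further simulation limma called 200 of 200 changed and 18 of 11529 unchanged genes. The changes set there were larger than that of any decay factor, so the recovery of changes of their size was not tested. Libraries of a treatment differed by more than counting noise (chi-square per degree of freedom 3.36 to 7.04). Ratios used scipy 1.17.1.

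The members, the lists and the rule for named genes (the 3 largest called changes of each list) were chosen with earlier results of these data known. Lists were written from general knowledge, and a few of their results are not reported here. Replicate numbers did not pair the libraries. Alternatives varied the pseudocount, filter, scaling, trend, block, libraries and model.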

Additional observations from a re-analysis of the deposited data

How the results depend on the processing

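The 9 decay factors kept their direction and their side of the threshold under every alternative in which they were tested, with 4 higher and 1 lower in each of the 14 fits. *SMG6* could not be tested where the filter was a mean of 5 FPKM. The log2 fold change ran from 0.84 to 0.90 for *UPF3B*, 0.32 to 0.38 for *UPF2*, 0.25 to 0.30 for *SMG1*, 0.15 to 0.23 for *SMG8* and -0.24 to -0.14 for *UPF1*, whose adjusted p ran from 0.000336 to 0.0364. The ratio of *UPF3B* to *UPF3A* differed by 0.92 to 1.01 and that of *SMG8* to *SMG9* by 0.26 to 0.38. Over all genes, limma-voom on recovered counts put 397 higher and 559 lower past the study's cutoff, against 263 and 344 in the main fit. A pseudocount of 0.1, with nothing else changed, put 375 higher and 531 lower past it, so these counts depend on the pseudocount. What set the limma-voom counts apart from the main fit was not tested. Correlations of deviations between libraries with the same number were -0.211, -0.014 and -0.127. With the replicate block, 4 factors were higher and 1 was lower. FPKM below a few counts are known only roughly, and no factor was that low.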
